A study of Mus musculus with 5 samples.

Results

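The 8 chemokine genes described here encode inflammatory chemokines of the T cell response (Ccl1, Ccl3, Ccl4, Ccl5, Xcl1, Cxcl9 and Cxcl10) and Cxcl16, the ligand of the receptor by which the T cells of this study were sorted. They were chosen by gene symbol, as a list of names, and every probe set that carried 1 of these symbols and no other was taken. This gave 10 probe sets for 8 of 18193 genes, out of 34945 probe sets with a single gene symbol. Cxcl9 and Cxcl16 had more than 1 probe set each, and the brighter one, by its mean over the 5 arrays, is called the main probe set and represents the gene.

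Chemokines are small secreted proteins that guide leukocytes along a gradient by binding G protein-coupled receptors. CCL3, CCL4 and CCL5 are released by activated T cells and NK cells, and CCL3 and CCL5 act on CCR1 of monocytes and effector T cells. XCL1 attracts dendritic cells that bear XCR1, and CCL1 is the ligand of CCR8. CXCL9 and CXCL10 are induced by IFN-γ in myeloid, stromal and epithelial cells and recruit T cells that bear CXCR3. CXCL16 differs from the others in being made as a transmembrane protein, which the protease ADAM10 sheds and which is known from macrophages, dendritic cells and epithelium.

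RNA of 5 samples was measured on Affymetrix whole-genome mouse arrays, with 2 arrays of CXCR6+ CD4+ T cells (labelled CXCR6 Hi), 2 of CXCR6- CD4+ T cells (labelled CXCR6 Lo) and 1 of CD45RBhigh CD4+ naive T cells (labelled CD45Rb Hi). The CXCR6+ and CXCR6- cells came from the colonic lamina propria (LP) of Rag1-/- mice, which lack T and B cells of their own and had received CD45RBhigh CD4+ T cells of BALB/c mice, so that both subsets descend from transferred naive cells in colitic hosts. The array cells were taken 6 weeks after transfer according to the supplement, while the methods give 8 weeks for recipients, and the mice were 8 to 12 weeks old at use. The naive cells came from spleen according to the methods, and their labels name both spleen and LP of healthy mice. The retransfer sort was on CD3ε+ CD4+ CD25- cells, with CXCR6 found by the binding of a CXCL16-Fc fusion protein. For the array cells the methods give no separate gate. The labels call the arrays of each subset biological replicates, but neither they nor the methods say how many mice gave each, so that p-values reflect the spread among the arrays and nothing beyond it. LP cells were released with collagenase and dispase and spleen cells by mechanical disruption. Against naive cells, the inflamed LP, the tissue, the preparation and the single naive array cannot be told apart.

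Signals are linear, with the median of each array at 1, and the number of arrays limits their precision. Cxcr6 had signals of 184 and 225 in CXCR6+ cells, 58.1 and 25.3 in CXCR6- cells and 10.5 in naive cells, in the order of the labels. T cell transcripts were present on all arrays, with a summed signal of 6 measured T cell identity genes of 343 to 538 in the LP and 491 in naive cells, of which Cd3e (fell by 1.83, adjusted p = 0.0176) and Cd3d (fell by 1.13, adjusted p = 0.0396) were lower in the LP on the log2 scale and 4 did not pass. Of 3 measured naive T cell genes, Lef1 fell by 3.13 (adjusted p = 0.0190), Il7r rose by 1.46 (adjusted p = 0.0262, lost under quantile normalization) and Ccr7 did not pass. Markers of other cells were read as well, without a detection call, and their values are given beside those of the chemokines.

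RefSeq promoter windows (build GRCm38.p6, 250 bases before to 50 after the gene's start) were found for 5 of the 8 genes, Xcl1, Cxcl9, Cxcl10, Ccl1 and Ccl3. No window was at hand for Ccl4, Ccl5 and Cxcl16. The windows of 2 genes that rose in the LP, Cxcl9 and Cxcl10, and of 2 that fell, Ccl3 and Xcl1, are shown so that these groups can be read beside each other. Each is written 5′ to 3′ on the gene's own strand, and capitals mark matches to the motifs named after them. The Cxcl9 window lies on the minus strand at chr5:92328030-92328329.
Cxcl9: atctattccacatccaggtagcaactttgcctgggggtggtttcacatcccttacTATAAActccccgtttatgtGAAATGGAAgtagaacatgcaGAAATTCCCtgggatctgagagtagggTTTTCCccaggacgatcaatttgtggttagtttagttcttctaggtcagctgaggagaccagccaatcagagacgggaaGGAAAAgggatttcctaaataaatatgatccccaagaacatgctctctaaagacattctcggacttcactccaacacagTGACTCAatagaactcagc
The Cxcl10 window lies on the minus strand at chr5:92348840-92349139.
Cxcl10: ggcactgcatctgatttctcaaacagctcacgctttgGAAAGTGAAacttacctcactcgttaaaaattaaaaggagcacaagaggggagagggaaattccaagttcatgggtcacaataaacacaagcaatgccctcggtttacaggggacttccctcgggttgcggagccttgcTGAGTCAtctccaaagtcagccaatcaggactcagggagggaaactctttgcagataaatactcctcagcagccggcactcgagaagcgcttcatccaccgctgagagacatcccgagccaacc
The Ccl3 window lies on the minus strand at chr11:83649329-83649628.
Ccl3: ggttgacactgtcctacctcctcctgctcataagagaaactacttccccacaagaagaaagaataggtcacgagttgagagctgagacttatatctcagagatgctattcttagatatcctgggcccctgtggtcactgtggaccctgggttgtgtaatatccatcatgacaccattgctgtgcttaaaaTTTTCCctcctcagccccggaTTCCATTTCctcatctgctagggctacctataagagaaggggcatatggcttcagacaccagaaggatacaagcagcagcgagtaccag
The Xcl1 window lies on the minus strand at chr1:164935473-164935772, and its lack of capitals says that none of the motifs was found.
Xcl1: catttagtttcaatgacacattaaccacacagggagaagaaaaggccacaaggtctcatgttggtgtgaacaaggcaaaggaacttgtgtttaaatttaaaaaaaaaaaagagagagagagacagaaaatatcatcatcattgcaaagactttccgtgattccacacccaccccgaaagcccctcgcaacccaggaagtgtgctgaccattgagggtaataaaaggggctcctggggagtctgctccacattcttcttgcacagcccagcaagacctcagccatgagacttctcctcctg

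The letters were searched on both strands. GGGANTTTC, the only pattern searched for NF-κB, was found in the window of Cxcl9 alone, 154 bases before the start. It was found in 1.112% of 32817 mouse promoter windows of the same length. Other forms of the NF-κB site were not searched, so that a window without this match may still hold one. GAAANNGAA, the core of the interferon-stimulated response element, was found in the windows of Cxcl9 (175 bases before the start), Cxcl10 (213), Ccl1 (91) and Ccl3 (39), against 8.55% of all windows. TGANTCA, for AP-1, was found in Cxcl10 (74 bases before the start) and in Cxcl9 (31 bases after it), against 7.813%. GGAAAA, the NFAT core, was found 2 times in Cxcl9, 2 times in Ccl1, where one match overlaps the interferon element, and 1 time in Ccl3, against 23.34%. TATAAA, the letters of the TATA box, was found in Cxcl9, 195 bases before the start (13.62% of all windows held it at any position). TTCNNNGAA, the only pattern searched for the IFN-γ-activated site (GAS), was found in none of the 5 windows, against 8.294% of all windows. A match to letters is a description and not a site of binding.

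By position, the genes fall into a few groups. Ccl3 and Ccl4 are neighbours on chromosome 11 with 0 protein-coding genes between them, and Ccl5 lies 2 such genes away, separated by Ccl9 and Ccl6. Ccl1 lies on the same chromosome, 25 protein-coding genes from Ccl5, and Cxcl16 is on chromosome 11 too, 229 such genes from Ccl1. Cxcl9 and Cxcl10 lie on chromosome 5 with Art3 alone between them, and Xcl1 is on chromosome 1.

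**Figure D1:**
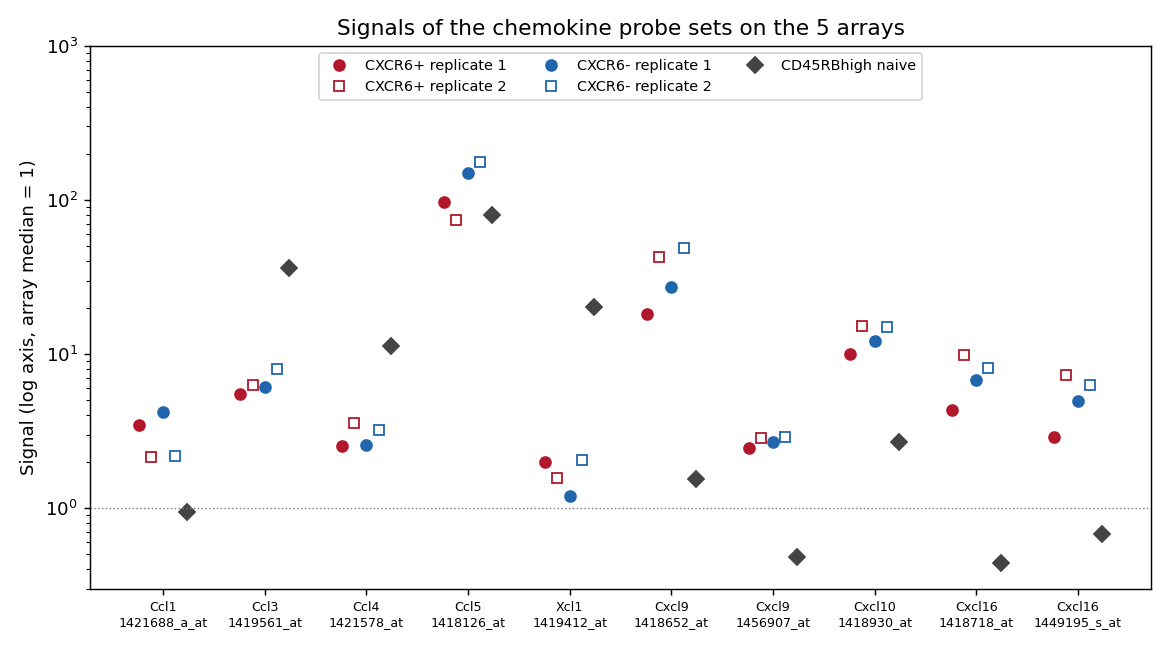
Signal of each of the 10 probe sets (log axis, linear signal with the array median at 1) on the 2 CXCR6+ arrays, the 2 CXCR6- arrays and the naive array. Naive cells lie above all 4 LP arrays for Ccl3, Ccl4 and Xcl1 and below them for Ccl1, Cxcl9, Cxcl10 and Cxcl16, while for Ccl5 the naive signal of 79.7 lies between those of the CXCR6+ arrays.

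To see how the chemokines of colitic T cells differ from those of the cells that were transferred, the mean of both LP subsets was compared with naive cells. Of the 8 chemokines, 3 rose (Cxcl9, Cxcl16 and Cxcl10), 3 fell (Xcl1, Ccl3 and Ccl4) and 2 did not pass the test (Ccl1 and Ccl5). Of all 18193 genes, 15.1% rose and 18.8% fell in this comparison, and the median log2 difference was 1.08 for the 8 chemokines and -0.14 for all genes. Between CXCR6+ and CXCR6- cells 0 of the 8 passed, as did 0% of all genes. The test was limma on log2 signals with Benjamini-Hochberg adjustment over all genes, in which the single naive array has no spread of its own and borrows that of the LP arrays. With 4 arrays against 1, an exact two-sided permutation test cannot go below 0.2.

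Xcl1 encodes lymphotactin, by which T cells and NK cells attract dendritic cells. Its signal (probe set 1419412_at) was 2.00 and 1.57 in CXCR6+ cells, 1.20 and 2.06 in CXCR6- cells and 20.3 in naive cells. The 4 LP arrays thus lay close to the array median and the naive array stood far above them. The log2 signal fell by 3.60 in the LP (SE 0.43, adjusted p = 0.0160), with naive cells 12.2-fold higher. In bulk RNA, fewer cells of a type and less RNA per cell cannot be told apart, nor do the arrays show which cells of a sample made a transcript.

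Ccl3 and Ccl4 encode MIP-1α and MIP-1β, which recruit monocytes and effector lymphocytes. Ccl3 (1419561_at) had signals of 5.53 and 6.28 in CXCR6+ cells, 6.11 and 8.05 in CXCR6- cells and 36.1 in naive cells. It fell by 2.49 on the log2 scale in the LP (SE 0.30, 95% interval -3.34 to -1.64, adjusted p = 0.0160), so that naive cells were 5.61-fold higher. Ccl4 (1421578_at), its neighbour on the chromosome, had signals of 2.54 and 3.58 in CXCR6+ cells, 2.56 and 3.21 in CXCR6- cells and 11.3 in naive cells. Here too every LP array lay below the naive one. Ccl4 fell by 1.95 on the log2 scale (SE 0.34, adjusted p = 0.0270), with naive cells 3.86-fold higher. Under quantile normalization Ccl4 no longer passed (fell by 1.17 on the log2 scale, adjusted p = 0.0625), while Ccl3 and Xcl1 did.

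The 2 genes that lie between Ccl5 and Ccl3 belong to the same family. Ccl6 had signals of 6.79 to 8.15 in the LP and 39.6 in naive cells, and fell by 2.38 on the log2 scale (SE 0.25, adjusted p = 0.0146). Ccl9 had signals of 6.76 to 11.2 in the LP and 23.5 in naive cells, and its log2 difference of -1.32 missed the threshold (adjusted p = 0.0739).

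Since Xcl1, Ccl3 and Ccl4 are also made by NK cells and myeloid cells, markers of other cells were read beside them. Of 9 measured cytotoxic T and NK cell markers, 1 was lower in the LP and 8 did not pass. The one was Ncr1, the NK cell receptor NKp46, with signals of 0.100 to 0.685 in the LP and 24.9 in naive cells (fell by 6.52 on the log2 scale, adjusted p = 0.0179). The list's summed signal, in which the brightest genes weigh most, was 227 to 524 in the LP and 326 in naive cells. Of 5 measured neutrophil markers, 3 were lower in the LP, S100a9, Ngp and S100a8, and the summed signal was 16.6 to 31.0 in the LP against 191 in naive cells. Of 4 measured B cell markers, 3 were lower (Ms4a1, Cd79b and Cd79a) and Pax5 was higher, with a summed signal of 1.78 to 2.41 in the LP and 46.1 in naive cells. Under quantile normalization 2 B cell markers were lower and 1 was higher. None of these markers was at a signal of 0 on any array. Only 2 signals of all probe sets and arrays were 0, so that this does not show the markers to be present. The macrophage and dendritic cell list went the other way, with 4 of 12 markers higher in the LP and 0 lower. Its summed signal was 327 to 437 in the LP against 119 in naive cells. The methods give a gate on CD3ε and CD4 for the transferred and the retransferred cells, and no separate gate for the array cells. The part of other cells in the fall of Xcl1, Ccl3 and Ccl4 was not tested.

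Cxcl9 encodes MIG, an IFN-γ-induced ligand of CXCR3. Its main probe set (1418652_at) had a signal of 18.2 and 42.7 in CXCR6+ cells, 27.3 and 48.9 in CXCR6- cells and 1.53 in naive cells. The LP arrays spread widely among themselves, yet all stood far above the naive array. The log2 signal rose by 4.38 (SE 0.66, adjusted p = 0.0216), a 20.8-fold difference. The second probe set (1456907_at) had signals of 2.47 and 2.87 in CXCR6+ cells, 2.70 and 2.88 in CXCR6- cells and 0.484 in naive cells. Fitted among all probe sets it rose by 2.49 (SE 0.27, adjusted p = 0.0173), with far less spread between the LP arrays than the main probe set.

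Cxcl10 encodes IP-10, which shares the receptor CXCR3. Its signal (1418930_at) was 10.03 and 15.3 in CXCR6+ cells, 12.2 and 14.9 in CXCR6- cells and 2.67 in naive cells. It rose by 2.27 on the log2 scale (SE 0.36, adjusted p = 0.0237), which is 4.83-fold. Cxcl11, a further CXCR3 ligand outside the list, had signals of 6.19 to 8.45 in the LP and 0.066 in naive cells and rose by 6.85 (adjusted p = 0.0119), its naive signal lying below the array median.

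Cxcl16 (main probe set 1418718_at) had signals of 4.32 and 9.92 in CXCR6+ cells, 6.73 and 8.13 in CXCR6- cells and 0.441 in naive cells. All LP arrays lay above the array median and the naive array below it. The log2 signal rose by 3.98 (SE 0.56, adjusted p = 0.0196), a 15.8-fold difference that rests on a naive signal below the array median. On log2 of the signal plus 1 it rose by 2.47 (adjusted p = 0.00381), and with signals floored at 1 the difference was 2.799 and no longer passed (adjusted p = 0.103). Its second probe set (1449195_s_at), of a type that can bind related transcripts, had signals of 2.90 and 7.33 in CXCR6+ cells, 4.99 and 6.26 in CXCR6- cells and 0.679 in naive cells, and rose by 2.90 (SE 0.62, adjusted p = 0.0429). Both probe sets kept the same order of the 4 LP arrays. Against naive cells the second probe set passed in neither subset alone (2.76 with adjusted p = 0.0622 in CXCR6+ cells and 3.04 with adjusted p = 0.0516 in CXCR6- cells).

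Cxcl9, Cxcl10 and Cxcl16 are known from myeloid, stromal and epithelial cells, and some markers of those cells were higher in the LP arrays too. Of 12 macrophage and dendritic cell markers 4 rose, 0 fell and 8 did not pass. Cd14, an LPS co-receptor (5.27 on the log2 scale, adjusted p = 0.0119), and Clec7a, the β-glucan receptor dectin-1 (4.61, adjusted p = 0.0119), rose furthest, followed by Lyz2 (1.55) and Csf1r (1.20). The summed signal of the list was 327 to 437 in the LP and 119 in naive cells. Of 8 endothelium and stroma markers 4 rose, 1 fell (Pecam1, not under quantile normalization) and 3 did not pass, with Dcn, which encodes the matrix protein decorin, up by 4.87 (adjusted p = 0.0146) and Col3a1 up by 3.66 (adjusted p = 0.0145). Their summed signal was 80.8 to 136 in the LP and 17.7 in naive cells, and under quantile normalization 3 of these markers rose. Of 12 colonic epithelium markers 2 rose, 1 fell and 9 did not pass, while under quantile normalization 1 rose and 1 fell. Krt8, a keratin of simple epithelia, rose by 5.41 (adjusted p = 0.0251), Tff3 rose by 1.59 (adjusted p = 0.0450) and Car1 fell by 3.02 (adjusted p = 0.0188), while the summed signal was 46.9 to 109.6 in the LP and 106 in naive cells. No detection call was used for these markers, and their part in the rise of the 3 chemokines was not tested.

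Ccl1 encodes I-309 (TCA3), a ligand of CCR8 released by activated T cells. Its signal (1421688_a_at) was 3.45 and 2.14 in CXCR6+ cells, 4.22 and 2.18 in CXCR6- cells and 0.949 in naive cells. Although the 4 LP arrays lay above the naive one, the log2 difference of 1.60 did not pass (SE 0.54, adjusted p = 0.0975). It passed when genes below the 40th percentile of signal were left out (adjusted p = 0.0183) and under a variance trend with robust fitting (adjusted p = 0.0212).

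Ccl5 encodes RANTES, which cytotoxic and memory T cells hold ready for release. Its signal (1418126_at) was 97.0 and 74.0 in CXCR6+ cells, 149 and 176 in CXCR6- cells and 79.7 in naive cells. The naive array fell within the range of CXCR6+ cells, and both CXCR6- arrays lay above all the others. The LP subsets together did not pass against naive cells (0.55 on the log2 scale, SE 0.30, 95% interval -0.31 to 1.42, adjusted p = 0.229).

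The subsets were then set against naive cells one at a time, with the naive array shared by both comparisons. In CXCR6+ cells, where 13.2% of all genes rose and 15.3% fell, the same 6 chemokines passed with the same signs. They did so again in CXCR6- cells, where 12.8% of all genes rose and 16.7% fell. The log2 differences of CXCR6+ and CXCR6- cells were 4.18 and 4.57 for Cxcl9, 3.89 and 4.07 for Cxcl16 and 2.21 and 2.33 for Cxcl10. They were -3.52 and -3.69 for Xcl1, -2.61 and -2.36 for Ccl3 and -1.91 and -1.98 for Ccl4. These values share the naive array, and for either subset alone 0 of the 8 chemokines, and 0 of all genes, passed with any 1 LP array left out. Ccl1 did not pass in CXCR6+ cells (1.52, adjusted p = 0.136) or CXCR6- cells (1.68, adjusted p = 0.112). Ccl5 was at 0.09 in CXCR6+ cells (adjusted p = 0.856) and at 1.02 in CXCR6- cells (SE 0.33, adjusted p = 0.0950, 2.03-fold), and the latter passed only under the filter on dim genes, on log2 of the signal plus 1 and under the variance trend.

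The calls against naive cells rested on all 4 LP arrays being present. For both subsets together, Cxcl9 and Cxcl16 passed without CXCR6+ replicate 1, where 945 of all genes rose and 824 fell. Cxcl16 alone passed without CXCR6+ replicate 2, where 999 genes rose and 939 fell. Without either CXCR6- array 0 of the 8 chemokines passed, as did 0 of all genes. The direction of the 6 chemokines was the same in each of these fits.

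**Figure D2:**
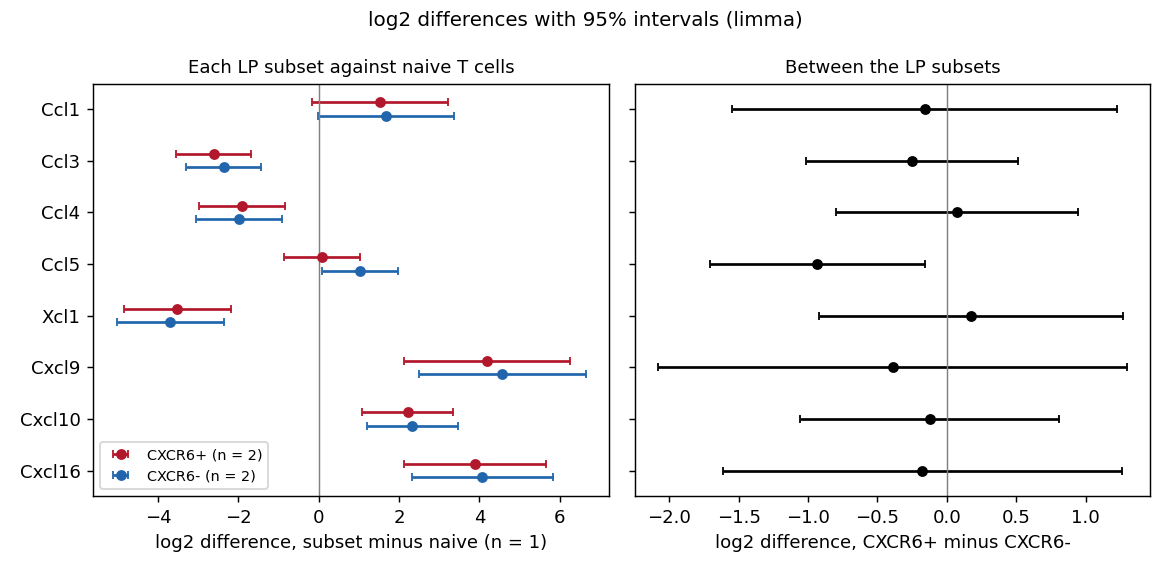
log2 difference of each chemokine with its 95% interval from limma, on the left for CXCR6+ (n = 2) and CXCR6- cells (n = 2) minus naive cells (n = 1) and on the right for CXCR6+ minus CXCR6- cells. On the left the intervals of Ccl3, Ccl4, Xcl1, Cxcl9, Cxcl10 and Cxcl16 lie clear of 0 in both subsets, and on the right that of Ccl5 alone (-1.71 to -0.16) does.

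Whether sorting on the CXCL16 receptor also separated the cells by the chemokines they make was asked by comparing CXCR6+ with CXCR6- cells. None of the 8 passed, and only Ccl5 had an unadjusted p under 0.05, as did 6.55% of all genes. Ccl5 was lower in CXCR6+ cells, at 97.0 and 74.0 against 149 and 176, so that the arrays of the subsets did not overlap. The log2 difference was -0.93 (SE 0.27, 95% interval -1.71 to -0.16, unadjusted p = 0.0291, adjusted p = 0.708), with CXCR6- cells 1.91-fold higher. Arrays that do not overlap and lie lower in CXCR6+ cells were found for 14.3% of all genes, and with 2 arrays against 2 an exact two-sided permutation test cannot go below 0.333. Between equally numbered arrays, which the labels do not say share an animal, Ccl5 differed by -0.62 in replicate 1 and -1.25 in replicate 2. No cytotoxic T and NK cell marker passed between the subsets, and the summed signal of that list ran the other way, at 524 and 319 in CXCR6+ cells and 227 and 242 in CXCR6- cells. Eomes, a T-box factor of cytotoxic and memory T cells that was picked out after its values were seen, had signals of 1.38 and 2.32 in CXCR6+ cells and 13.02 and 36.5 in CXCR6- cells (log2 difference -3.61, adjusted p = 0.564), and its part in the Ccl5 values was not tested.

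For the other 7 chemokines the arrays of the subsets overlapped. The log2 difference was 0.07 for Ccl4 (95% interval -0.80 to 0.94), -0.25 for Ccl3 (-1.01 to 0.51) and -0.12 for Cxcl10 (-1.06 to 0.81). For Xcl1 it was 0.17 (-0.92 to 1.27) and for Ccl1 -0.16 (-1.54 to 1.23). Cxcl16 differed by -0.18 (-1.61 to 1.26) and Cxcl9 by -0.39 (-2.08 to 1.30). These intervals leave room for differences of at least 1 log2 unit in one direction or the other for all but Ccl4, so that they do not show the subsets to be alike.

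Compared by number, the CXCR6+ array was lower than the CXCR6- array in both replicates for Ccl1 (-0.29 and -0.03), Ccl3 (-0.14 and -0.36), Ccl5 and Cxcl9 (-0.58 and -0.20). The sign differed between the replicates for Xcl1 (0.74 and -0.40), Cxcl16 (-0.64 and 0.29), Cxcl10 (-0.28 and 0.04) and Ccl4 (-0.01 and 0.16). No chemokine was higher in CXCR6+ cells in both replicates, but the share of all genes with each pattern was not computed. The labels do not say that equally numbered arrays share an animal, so that these signs are not read as a trend.

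For each of the 8 chemokines but Ccl3 and Ccl5, the replicates of either subset differed by more than the means of the subsets did. The ratio of replicate 2 to replicate 1 was 2.34 in CXCR6+ cells and 1.79 in CXCR6- cells for Cxcl9, 2.30 and 1.21 for Cxcl16, and 1.52 and 1.22 for Cxcl10. By the main probe sets, all 3 were thus higher in replicate 2 of both subsets. The second Cxcl9 probe set differed less, from 2.47 to 2.87 in CXCR6+ cells and from 2.70 to 2.88 in CXCR6- cells. The second Cxcl16 probe set went from 2.90 to 7.33 in CXCR6+ cells and from 4.99 to 6.26 in CXCR6- cells. The ratio was below 1 in both for Ccl1 (0.620 and 0.517), and it was 1.41 and 1.25 for Ccl4 and 1.14 and 1.32 for Ccl3. Ccl5 (0.763 and 1.18) and Xcl1 (0.783 and 1.72) were lower in replicate 2 of CXCR6+ cells and higher in that of CXCR6- cells. Over 10907 genes with a mean signal of at least 1, the median absolute log2 difference between replicates was 0.27 in CXCR6+ cells and 0.23 in CXCR6- cells. The summed epithelial markers moved in the same direction as Cxcl9 and Cxcl16, with ratios of 1.91 and 2.32, as did endothelium and stroma (1.69 and 1.30) and macrophages and dendritic cells (1.34 and 1.08). The T cell identity list had ratios of 1.07 and 0.831. Krt8 alone had signals of 9.36 and 25.4 in CXCR6+ cells and 10.3 and 29.6 in CXCR6- cells. The part of such cells in the replicate differences was not tested.

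**Figure D3:**
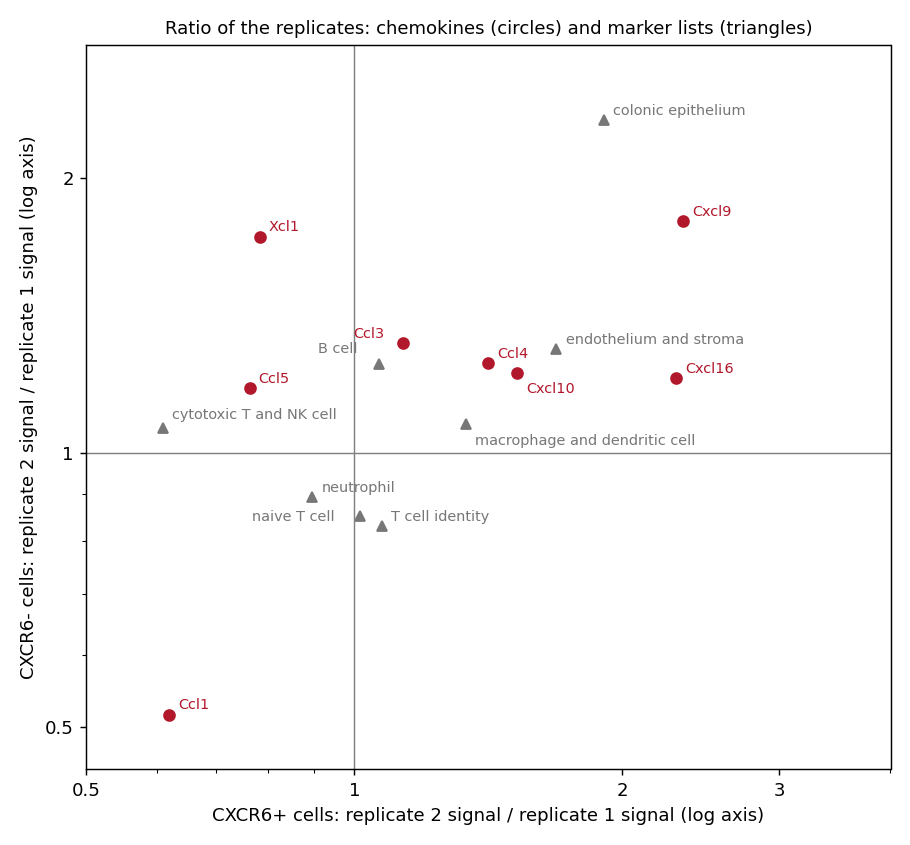
Ratio of the replicate 2 signal to the replicate 1 signal in CXCR6+ cells (horizontal, log axis) and CXCR6- cells (vertical, log axis), with the main probe sets of the 8 chemokines as circles and the summed signals of 8 marker lists as triangles. Cxcl9, Cxcl16, Cxcl10, Ccl3 and Ccl4 lie in the upper right together with the epithelial, stromal, macrophage and B cell lists, and Ccl1 lies at the lower left.

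The receptors that read these chemokines were taken as a list of 8. Against naive cells 3 rose in the LP, 1 fell and 4 did not pass, with a median log2 difference of 1.39 against -0.14 for all genes. Ccr1, which binds CCL3 and CCL5, had signals of 7.79 and 9.997 in CXCR6+ cells, 6.60 and 5.79 in CXCR6- cells and 1.42 in naive cells and rose by 2.38 (adjusted p = 0.0163). Cxcr3, the receptor of CXCL9 and CXCL10, had signals of 136 to 159 in the LP and 43.4 in naive cells and rose by 1.78 (SE 0.25, adjusted p = 0.0197), with hardly any spread among the LP arrays. Cxcr6, the receptor of CXCL16, rose by 3.07 (SE 0.56, adjusted p = 0.0294). The rise of Cxcr6 passed in CXCR6+ cells, which were sorted on that receptor (4.27, adjusted p = 0.0242), and not in CXCR6- cells (1.86, adjusted p = 0.0990), where Cxcl16 did pass. Cxcr3 passed in CXCR6+ cells (1.76, adjusted p = 0.0270) and in CXCR6- cells (1.81, adjusted p = 0.0255). Ccr3, an eosinophil receptor that binds CCL5, fell by 4.61 (adjusted p = 0.0478) from a signal of 2.04 in naive cells to 0.034 to 0.368 in the LP, and no longer passed under quantile normalization.

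The other 4 receptors did not pass. Ccr8, the receptor of CCL1, had signals of 0.845 to 2.31 in the LP and 0.354 in naive cells (log2 difference 2.20, adjusted p = 0.0599). Xcr1, the receptor of XCL1, lay below the array median on all 5 arrays (0.297 to 0.946, log2 difference 1.00, adjusted p = 0.283). The atypical receptors Ackr1 and Ackr2, which take up chemokines without signalling, differed by 0.77 (adjusted p = 0.153) and -0.34 (adjusted p = 0.459). Between the subsets none of the 8 receptors passed, Cxcr6 included (log2 difference 2.41, SE 0.50, unadjusted p = 0.0105, adjusted p = 0.626).

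Proteins that shed, cut or store chemokines were read as a list of 4, of which 1 rose, 1 fell and 2 did not pass. Adam17, a sheddase, rose by 1.52 (adjusted p = 0.0477). Dpp4, the surface peptidase CD26, which trims the N-terminus of CXCL10 and CCL5 and thereby alters their activity, had signals of 8.67 to 12.6 in the LP and 72.6 in naive cells and fell by 2.75 (SE 0.25, adjusted p = 0.0127). Adam10, the main sheddase of CXCL16 (-0.52, adjusted p = 0.208), and Srgn, the proteoglycan serglycin of secretory granules (0.91, adjusted p = 0.0683), did not pass.

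Of the 26 measured among 28 other chemokine ligands, 14 rose in the LP, 3 fell and 9 did not pass, with a median log2 difference of 2.11, and under quantile normalization 14 rose and 2 fell. The neutrophil attractants Cxcl1 (8.81, with signals of 109.8 to 186 in the LP and 0.328 in naive cells) and Cxcl2 (7.86, with 164 to 254 and 0.944) and the eosinophil attractant Ccl11 (8.59, with 5.05 to 6.72 and 0.015) had the largest fitted log2 differences, with Cxcl11, each at an adjusted p of 0.0119. The naive signals of Ccl11, Cxcl1 and Cxcl11 lay below the array median, where no background level is known, so that the order of these differences is not read further. The 3 that fell were Ccl25 (-3.64), Ppbp (-3.39) and Ccl6, which puts Xcl1, Ccl3 and Ccl4 among 6 chemokine ligands that were lower in the LP.

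**Figure D4:**
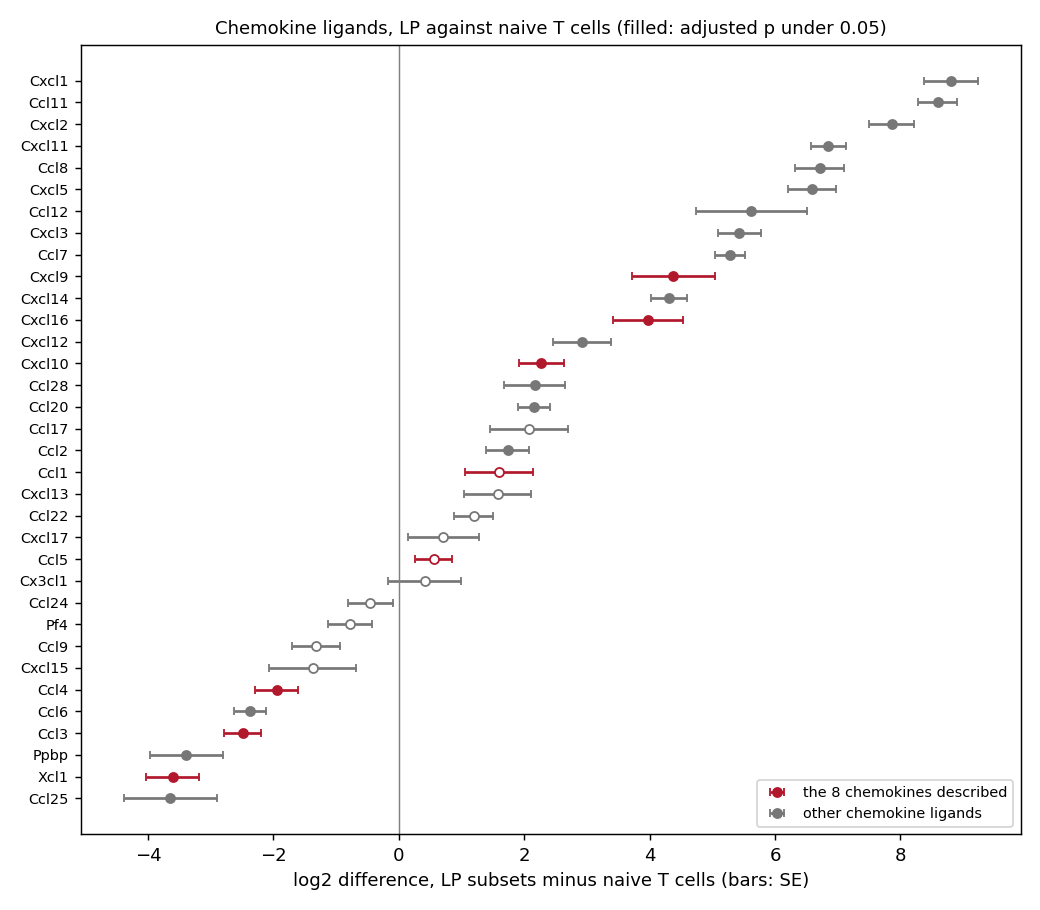
log2 difference (both LP subsets minus naive cells, bars are SE from limma) of the 8 chemokines in red and of 26 other chemokine ligands in grey, ordered by size, with filled points for an adjusted p under 0.05. Cxcl9, Cxcl16 and Cxcl10 lie among the 17 ligands that rose, and Xcl1, Ccl3 and Ccl4 among the 6 that fell.

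IFN-γ and the other cytokines that act on these genes were read next. Of 6 effector cytokines 3 rose, 1 fell and 2 did not pass. Il17a rose by 5.49 (adjusted p = 0.0119), Csf2 by 2.79 (adjusted p = 0.0162) and Ifng by 2.34 (SE 0.37, adjusted p = 0.0231), while Lta, which encodes lymphotoxin-α, fell by 1.54 (adjusted p = 0.0332), a call that was lost under quantile normalization. Ifng had signals of 156 and 248 in CXCR6+ cells, 42.4 and 38.2 in CXCR6- cells and 17.6 in naive cells. Between the subsets Ifng did not pass (log2 difference 2.29, unadjusted p = 0.00300, adjusted p = 0.529). Of 13 measured genes of the IFN-γ response, 1 rose (Ido1, a tryptophan-degrading enzyme, by 6.86, adjusted p = 0.0119), 1 fell (Irgm1, an IFN-γ-induced GTPase, by 1.55, adjusted p = 0.0232) and 11 did not pass, with a median of 0.10. Cxcl9 and Cxcl10 rose while most of that list did not pass. Between the subsets no gene of these lists passed.

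Of 11 measured transcription factors known to act on chemokine genes, 3 rose in the LP, 1 fell and 7 did not pass. Those that rose were the NF-κB genes Rel (4.27, adjusted p = 0.0119), Relb (1.72, adjusted p = 0.0251) and Nfkb2 (1.20, adjusted p = 0.0348), while Rela, the 4th NF-κB gene measured, did not pass (0.70, adjusted p = 0.0981). In CXCR6- cells alone Rel passed, and Relb (1.24, adjusted p = 0.0591) and Nfkb2 (0.68, adjusted p = 0.133) did not. The one that fell was Klf13 (RFLAT-1), which is known to drive late CCL5 expression in T cells, at signals of 18.0 to 25.4 in the LP and 63.0 in naive cells (fell by 1.59, SE 0.27, adjusted p = 0.0255). Ccl5 itself did not pass in that comparison.

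The genes whose log2 signals followed each chemokine most closely over the 5 arrays were found among 10548 genes, by the root mean square difference after centring each gene on its mean. This is a description over few arrays that are largely set by the naive one. Ccl3 was followed most closely, by Nfatc2ip (0.0325), Trim21 (0.0421) and Rcor3 (0.0544). For Cxcl10 these were Cdcp1 (0.0431), H2-Ea (0.0618) and Eln (0.0701), and for Ccl4 Ece2 (0.0544), Rnaseh2c (0.0563) and Lrrc40 (0.0574). Less close were those of Xcl1, BC048403 (0.101), Ralb (0.105) and Cln6 (0.129), and those of Ccl1, Ccr6 (0.117), Ms4a15 (0.134) and Rhob (0.144). For Ccl5 they were Srcin1 (0.126), Antxr1 (0.138) and Spata3 (0.155). C1s1, a complement protease gene, was near both Cxcl16 (Dpt at 0.134, C1s1 at 0.141 and Cnnm4 at 0.188) and Cxcl9 (Plet1 at 0.152, Smim22 at 0.203 and C1s1 at 0.230). None of the 8 chemokines was among the nearest genes of another.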

How the data were processed

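Of 5 arrays, 2 held CXCR6+, 2 CXCR6- and 1 naive CD4+ T cells. The intensity values deposited by the authors are linear signals with each array's median at 1, for which the methods name GeneSpring 11.5 and the submitters' processing notes RMA. The sources used here give neither background correction nor filters, and labels and methods name different RNeasy kits. Of 45101 probe sets, 34945 carried 1 gene symbol, and the brightest on average stood for each of 18193 genes.

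Signals were log2 transformed (0 set to 0.001) and fitted over the 3 groups with limma 3.58.1 in R 4.3.3 (two-sided, adjusted over all genes by Benjamini-Hochberg with a threshold of 0.05, 2 residual and 1.678 prior degrees of freedom). The fit was tested on simulated data. Figures used matplotlib 3.10.9 in Python 3.11.15.

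The chemokines and lists were chosen with earlier results of these data known. Named were all 8 chemokines, all 8 receptors, up to 4 passing genes with the largest difference in each other list, and the 3 genes most like each chemokine among those with a mean signal of at least 1 and not named as predicted. Ccl6, Ccl9, Ccl25, Ppbp, Ccr7, Adam10, Srgn, Eomes and Rela were named beyond this rule, after their values were seen. Alternatives were every probe set fitted, the mean log2 signal per gene, no _s_at or _x_at probe sets, a filter at the 40th percentile, quantile normalization, log2 of the signal plus 1, a floor at 1, a replicate block, a robust fit with a variance trend, each LP array left out, a fold of at least 2 and the methods' test.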

Additional observations from a re-analysis of the deposited data

How the results depend on the processing

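Against naive cells, 6 of the 8 chemokines passed for both subsets together, for CXCR6+ cells and for CXCR6- cells. The count was 5 to 8 under every probe set fitted, the mean log2 signal per gene, no _s_at or _x_at probe sets, the filter at the 40th percentile, quantile normalization, log2 of the signal plus 1, the variance trend and a fold of at least 2. With signals floored at 1, it was 2 (Ccl3 and Xcl1), 1 (Ccl3) and 2 (Ccl3 and Xcl1). For both subsets together the differences of Ccl4, Cxcl9 and Cxcl10 were the same under the floor as without it but did not pass (adjusted p = 0.0593, 0.0693 and 0.0566), while that of Cxcl16 went from 3.98 to 2.799 (adjusted p = 0.103), and the cause of the lost calls was not tested. When 1 LP array was left out it was 0 to 2 for both subsets together, 0 to 0 for CXCR6+ cells and 0 to 0 for CXCR6- cells, where 6 or 7 chemokines still had an unadjusted p under 0.05. With the replicate block it stayed at 6 for both subsets together but was 0 for CXCR6+ cells and 0 for CXCR6- cells, as for all genes, with adjusted p of the 6 chemokines from 0.0502 to 0.0597. The labels do not say that equally numbered arrays share an animal, and the differences of replicate 2 minus replicate 1 correlated between the subsets at r = 0.0193 over all genes and 0.192 over genes with a mean signal of at least 1. Against naive cells the 6 chemokines had the same sign in every alternative run. Between the subsets 0 passed in each, with 0 at an unadjusted p under 0.05 under the replicate block and under the methods' test, which gave 1283 genes at an unadjusted p under 0.05 and 1 after Benjamini-Hochberg. Quantile normalization moved the median log2 difference of all genes from -0.14 to -0.0013 and the share of calls that were higher in the LP from 44.7% to 56.4%. Among the calls that no longer passed were the falls of Ccl4, Ccr3, Lta and Pecam1 and the rise of Il7r. Fewer markers rose for epithelium (1 rather than 2) and for endothelium and stroma (3 rather than 4). Fewer B cell markers (2 rather than 3) and other chemokine ligands (2 rather than 3) fell. More macrophage and dendritic cell markers (6 rather than 4), effector cytokines (4 rather than 3) and transcription factors (4 rather than 3) rose. Of the IFN-γ response genes 2 rose and 2 fell, rather than 1 and 1. No background level or detection call was used, so that folds against naive signals below the array median, as for Cxcl16, have no stated lower limit.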
